A study of Homo sapiens with 8 samples.

Results

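The receptors and ligands of the vascular endothelial growth factor (VEGF) system were examined in 4 lists of chromatin immunoprecipitation peaks from OPM-2 cells. They comprised 8 of the 19974 protein-coding genes in the gene table: the receptor genes KDR, FLT1 and FLT4, the coreceptor genes NRP1 and NRP2, and the ligand genes VEGFA, VEGFB and VEGFC. A peak was counted for a gene when it overlapped the gene body or the 20 kb on either side of it, in the hg38 build. This gave 19 of 50946 peaks in the DMSO list, 21 of 36742 in the list labelled ATRA, 25 of 54279 in the POM list and 27 of 47193 in the ATRA+POM list. The genes were selected on their peak numbers and fold enrichments in these same lists, which were known from earlier results. Those values are therefore given as descriptions, without a test.

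OPM-2 is an established human myeloma line with the t(4;14) translocation. Cells were kept for 72 h in the vehicle DMSO, in all-trans retinoic acid (ATRA, which activates the retinoic acid receptors) at 1 µM, in pomalidomide (POM, which directs the cereblon ligase to the lymphoid factors IKZF1 and IKZF3) at 1 µM, or in both compounds at 1 µM each. All 4 treatments share this single line, and each has 1 immunoprecipitated library and 1 input library, so no difference between treatments can be set against a replicate spread. The labels do not name the antibody.

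VEGF ligands are secreted dimers that bind receptor tyrosine kinases on the cell surface, and the neuropilins NRP1 and NRP2 present some of them to those kinases. KDR carries most of the growth and migration signal in endothelial cells, FLT1 binds VEGFA tightly but signals weakly, and FLT4 is the VEGFC receptor of lymphatic endothelium. Myeloma cells secrete VEGFA, and the new vessels it promotes in bone marrow are a known feature of the disease.

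The library labelled ATRA stood apart from the others before any gene was considered. Summit reads, recovered for each peak from fold enrichment and p, had medians of 78 for DMSO, 23 under the ATRA label, 72 for POM and 65 for ATRA+POM. Relative to DMSO, depth was 0.132 under the ATRA label, 0.927 for POM and 0.902 for ATRA+POM. Of the ATRA-labelled peaks, 0.327% had no counterpart in the DMSO list, against 30.2% of POM peaks and 24.1% of ATRA+POM peaks. The peaks of this library are thus almost all DMSO peaks, and whether its label is right could not be settled from the values, so it is called by its label throughout. A gene without a peak under the ATRA label may be below what that depth can show, and its levels are given here with that limit. The fold enrichment is the authors' value for each library, the summit over the local background, and it was not scaled between libraries. Of the 8 plasma cell marker genes (among them SDC1, IRF4, PRDM1 and XBP1), 8 had a peak in each list, and of 7 endothelial marker genes 3, 2, 4 and 4 had one in the DMSO, ATRA-labelled, POM and ATRA+POM lists.

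**Figure D1:**
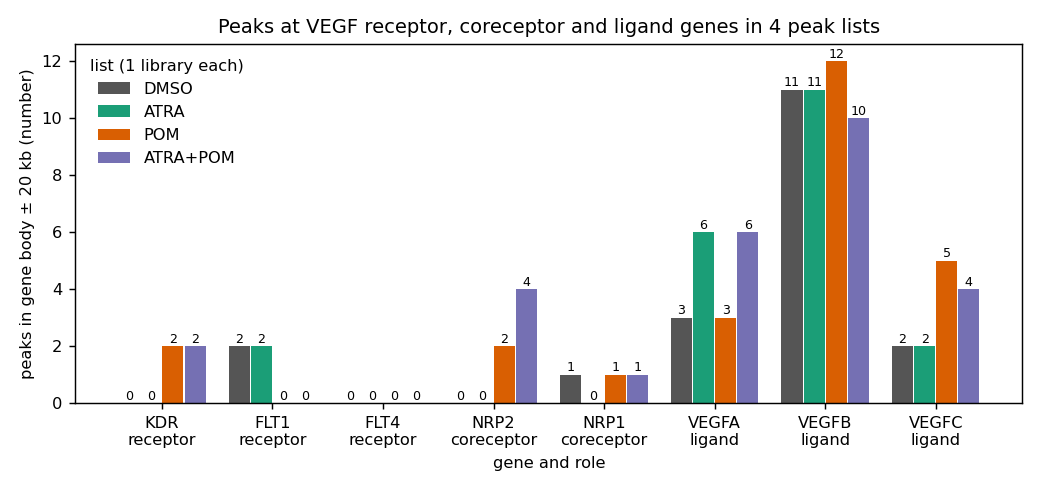
Number of peaks (vertical axis, from 0) overlapping the body or the 20 kb flanks of each gene, with 1 bar for each list and 1 library behind each bar. KDR and NRP2 have bars in the POM and ATRA+POM lists alone, FLT1 in the lists of DMSO and of the ATRA label alone, and FLT4 has none.

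KDR had no peak in the DMSO list, none under the ATRA label, 2 with POM and 2 with ATRA+POM. Neither peak lay at the promoter. KDR lies on the minus strand at chr4:55078481-55125595, and both regions lay beyond its 3′ end, about 49 kb from its start. The nearer region, chr4:55076181-55077572, began 909 bp past the end of the gene in the POM list. Its fold enrichment was 62.7 with POM, on 603 summit reads, and 19.1 with ATRA+POM, on 261 reads. The farther region, chr4:55075038-55076038, had a fold enrichment of 30.3 on 420 reads with POM and 16.0 on 164 reads with ATRA+POM. No peak was called inside the KDR body in any list. KDR and NRP2 were the 2 of 8 genes with a peak with POM and none with DMSO, a pattern that 4.18% of all 19974 genes showed. The same 2 genes had a peak with ATRA+POM and none with DMSO, against 3.04% of all genes.

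Scaled by depth, the KDR summits were above most called peaks of the lists without them. The POM summits of 603 and 420 reads correspond to 650 and 453 reads at the DMSO depth, where a called peak had a median of 78 reads. In the ATRA-labelled library they correspond to 86.1 and 60.0 reads, above its median of 23. The ATRA+POM summits correspond to 38.3 and 24.1 reads there, which is closer to that median. Among the 16368 POM peaks without a DMSO counterpart, the nearer KDR region ranked 82, within the strongest 0.501%. Among the 11367 such peaks of ATRA+POM it ranked 365. KDR was chosen with these values known, so the ranks and scaled reads are descriptions and lend the peaks no support.

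The edge of the 20 kb window cut through this neighbourhood. Just outside it, 22.8 kb below KDR, the region chr4:55055276-55055694 was called with DMSO at a fold enrichment of 3.13 on 31 reads, with POM at 5.53 on 137 reads and with ATRA+POM at 8.21 on 131 reads. A second POM peak beside it had a fold enrichment of 3.61. With 50 kb on both sides KDR therefore had 1 DMSO peak and 4 POM peaks, and with the gene body alone it had 0 in each list. At FLT1 and NRP2 the nearest peaks outside the window lay 30.7 kb past and 37.3 kb before the gene, and NRP1 and FLT4 had none between 20 and 50 kb.

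The KDR regions were the last of a series across the 338 kb between KIT and KDR, a stretch without protein-coding genes in band 4q12. This stretch held 4 peaks with DMSO, none under the ATRA label, 12 with POM and 14 with ATRA+POM, covering 956 bp, 0 bp, 7514 bp and 9184 bp. Its peaks formed 15 regions, of which 6 were called with POM and ATRA+POM alone, 4 with those lists and DMSO, 4 with ATRA+POM alone and 1 with POM alone. Over all regions of the 4 lists, these sets held 9.60%, 8.62%, 5.23% and 14.3%. Every one of the 15 regions was thus called in at least 1 of the lists with pomalidomide. Most of all regions were too: 16.3% were called with DMSO alone, 4.11% with DMSO and the ATRA label alone, and 0.132% under that label alone. At chr4:54800749-54801280, which is 277 kb below KDR, the fold enrichment was 39.7 with POM on 831 reads and 59.6 with ATRA+POM on 866 reads. The region beside it, chr4:54801338-54802331, was also called with DMSO, at 3.98 on 45 reads. There it was 24.9 with POM on 513 reads and 24.2 with ATRA+POM on 415 reads. At chr4:54957903-54959557, which is 119 kb below KDR, it was 10.1 with DMSO on 144 reads, 32.9 with POM on 491 reads and 25.0 with ATRA+POM on 442 reads. Which gene these regions act on, if any, was not tested. The interval was singled out after its values were seen.

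**Figure D2:**
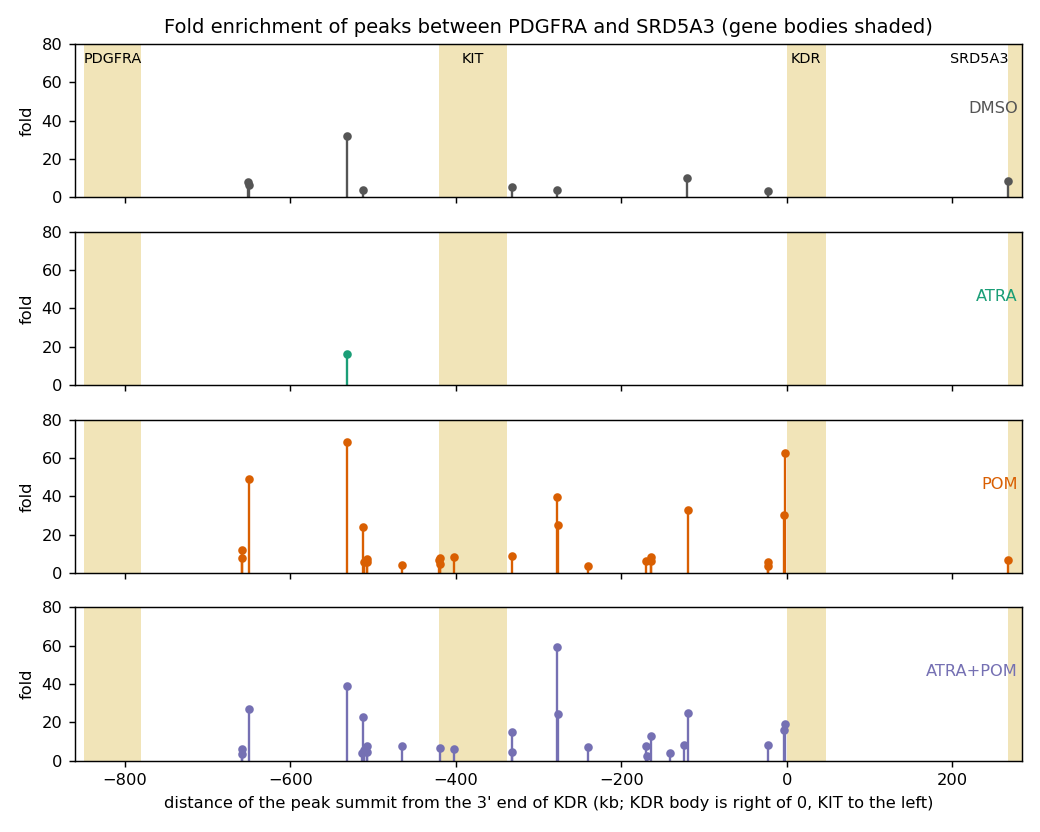
Fold enrichment (vertical axis, linear from 0) of each peak between PDGFRA and SRD5A3 against the distance of its summit from the 3′ end of KDR in kb, with 1 panel for each list and gene bodies shaded. Between KIT and KDR the POM panel has 12 peaks and the ATRA+POM panel 14, against 4 with DMSO and 0 under the ATRA label.

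The promoter sequences are shown because no peak touched the promoter of KDR, while the strongest peak in the VEGFB window overlapped the promoter of its neighbour FKBP2. The windows run from 250 bases before to 50 bases after the start, from the RefSeq table of GRCh38.p14, in which 5 of the 8 genes were found. Capitals mark every match, on either strand, to the motifs searched. The KDR window is chr4:55125546-55125845 on the minus strand, that of VEGFB is chr11:64234334-64234633 on the plus strand, and the first FKBP2 window is chr11:64240845-64241144 on the plus strand.
KDR promoter: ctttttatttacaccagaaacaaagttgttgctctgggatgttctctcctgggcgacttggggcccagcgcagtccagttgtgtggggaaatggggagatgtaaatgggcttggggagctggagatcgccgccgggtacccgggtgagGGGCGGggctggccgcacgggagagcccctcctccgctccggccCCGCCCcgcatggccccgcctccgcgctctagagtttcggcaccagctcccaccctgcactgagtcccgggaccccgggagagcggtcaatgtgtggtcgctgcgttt
VEGFB promoter: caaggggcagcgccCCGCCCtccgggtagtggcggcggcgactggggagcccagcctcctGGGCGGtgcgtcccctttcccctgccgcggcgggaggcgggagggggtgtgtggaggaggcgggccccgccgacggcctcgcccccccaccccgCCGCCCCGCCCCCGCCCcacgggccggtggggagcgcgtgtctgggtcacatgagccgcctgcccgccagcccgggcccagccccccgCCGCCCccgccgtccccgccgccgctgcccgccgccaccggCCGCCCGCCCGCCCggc
FKBP2 promoter: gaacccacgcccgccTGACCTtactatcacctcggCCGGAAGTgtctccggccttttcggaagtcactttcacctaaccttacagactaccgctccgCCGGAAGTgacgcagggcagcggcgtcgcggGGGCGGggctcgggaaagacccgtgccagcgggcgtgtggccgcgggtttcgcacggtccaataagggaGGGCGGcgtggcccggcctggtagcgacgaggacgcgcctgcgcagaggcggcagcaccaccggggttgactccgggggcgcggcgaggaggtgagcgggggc

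The KDR window held 2 matches to the Sp family box GGGCGG, at -102 and -58 bases from the start, and no match to any of the other 12 motifs. Sp matches alone were also found at FLT1 (3), NRP2 (3), VEGFB (9) and VEGFC (2). Such a match is common, with 44.9% of 34789 promoter windows holding 1 or more. The first FKBP2 window held 2 matches to the ETS motif CCGGAAGT, which 4.12% of promoter windows hold, 2 Sp boxes and 1 nuclear receptor core AGGTCA, which 13.8% hold. Exact direct repeats of that core with spacing 5 or 2, a strict form of the classical retinoid receptor elements, were in none of the 5 VEGF promoter windows. They were in 0.00575% and 0.00287% of all windows, too rare for their absence from 5 windows to be informative. Variant forms of the core were not searched. Matches to TGGGAA of the Ikaros family (24.0% of windows), TGANTCA of AP-1 (7.69%), the E-box CACGTG (7.24%) and the hypoxia response core ACGTG (21.4%) were also not in the 5 windows. The E-box contains the hypoxia core. The long hypoxia form, which contains both (1.49%), was not found there. The interferon response element (3.57%), the ETS with IRF element (2.81%) and the CTCF core (1.45%) were absent from them too. These statements concern the letters of the windows only. None of the 5 windows overlapped a peak in any list, while 33.6% of all promoter windows did with DMSO, 22.7% under the ATRA label, 30.5% with POM and 23.1% with ATRA+POM. FLT4, NRP1 and VEGFA had no promoter window and are not among the 5. VEGFA, described below, had peaks just before its start with DMSO, POM and ATRA+POM.

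FLT1, the tight binder of VEGFA, had the opposite distribution of peaks to KDR. It had 2 peaks with DMSO, 2 under the ATRA label, and none with POM or ATRA+POM. FLT1 lies on the minus strand at chr13:28300346-28495128, and both regions lay inside the gene, about 65 kb from its start. At chr13:28429339-28430083 the fold enrichment was 16.1 with DMSO on 204 reads and 9.58 under the ATRA label on 24 reads. At chr13:28430157-28430657 it was 15.2 on 218 reads and 10.8 on 35 reads. At the depth of the POM library the DMSO summits correspond to 189 and 202 reads, where a called peak had a median of 72. At the ATRA+POM depth they correspond to 184 and 197 reads, against a median of 65. FLT1 was the 1 of 8 genes with a peak with DMSO and none with POM, a pattern of 3.14% of all genes. It was also the 1 gene with a DMSO peak and none with ATRA+POM, against 7.75% of all genes. It was likewise the 1 gene with an ATRA-labelled peak and none with ATRA+POM, against 2.84%. The body of PAN3 overlaps the FLT1 window.

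Outside the window, about 31 kb past the end of FLT1, peaks were called with DMSO at fold enrichments of 8.88 and 9.62, under the ATRA label at 9.69 and 7.68, and with POM at 5.13 and 4.42. With 50 kb on both sides FLT1 therefore had 4, 4, 2 and 0 peaks in the DMSO, ATRA-labelled, POM and ATRA+POM lists. Across all genes, 136 genes (0.681%) had peaks in the lists of DMSO and of the ATRA label and none in the lists with pomalidomide, as FLT1 did. The reverse, as at KDR and NRP2, held for 457 genes (2.29%).

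FLT4, the receptor for VEGFC in lymphatic vessels, lies at chr5:180601506-180650298 and had no peak in any list. In this it was 1 of 4485 genes, or 22.5% of those in the table.

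The coreceptor NRP2 binds VEGFC and class 3 semaphorins. It had no peak with DMSO, none under the ATRA label, 2 with POM and 4 with ATRA+POM. NRP2 lies on the plus strand at chr2:205682501-205798131. Its strongest region, chr2:205744018-205744808, lies inside the gene, 61.8 kb from the start. The fold enrichment there was 11.4 with POM on 147 reads and 13.7 with ATRA+POM on 155 reads. The POM summit corresponds to 159 reads at the DMSO depth, where the median peak had 78. In the ATRA-labelled library it corresponds to 21.0 reads, near the median of 23 there. The region chr2:205714644-205715000 was weak, with a fold enrichment of 3.44 on 39 reads with POM and 7.95 on 32 reads with ATRA+POM. The other 2 regions were called with ATRA+POM alone, at 4.21 on 20 reads before the start and at 6.63 on 32 reads inside the gene. Scaled to the ATRA-labelled depth these 3 weak regions would have between 2.93 and 5.57 reads, below the 10th percentile of 11 reads for peaks of that list.

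A DMSO signal was present near NRP2 as well, outside its window. About 37 kb before the gene, DMSO peaks had fold enrichments of 6.14 and 6.07, and the POM peak there had 12.4. The ATRA+POM peaks at that place had 20.5 and 6.78. The 50 kb window of NRP2 thus held 4 DMSO peaks, 3 POM peaks and 8 ATRA+POM peaks. In that window POM therefore had fewer peaks than DMSO.

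NRP1, the coreceptor of KDR, had weak peaks only, inside the gene at chr10:33177493-33334667. At chr10:33211129-33211559 the fold enrichment was 6.00 on 43 reads with POM and 3.13 on 42 reads with ATRA+POM. At chr10:33244687-33245022 a peak was called with DMSO alone, at 4.15 on 47 reads. The NRP1 peaks are lost when the lists are cut to an equal number of their strongest peaks. NRP1 was the 1 of 8 genes with a peak with DMSO and none under the ATRA label, against 9.91% of all genes. No VEGF gene had the reverse, against 0.0501% of all genes. KDR, NRP1 and NRP2 were the 3 genes with a peak with ATRA+POM and none under the ATRA label, against 8.00% of all genes. At the ATRA-labelled depth the NRP1 summits of DMSO and ATRA+POM correspond to 6.22 and 6.16 reads. Those values are below the 10th percentile of 11 reads for peaks of that list.

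**Figure D3:**
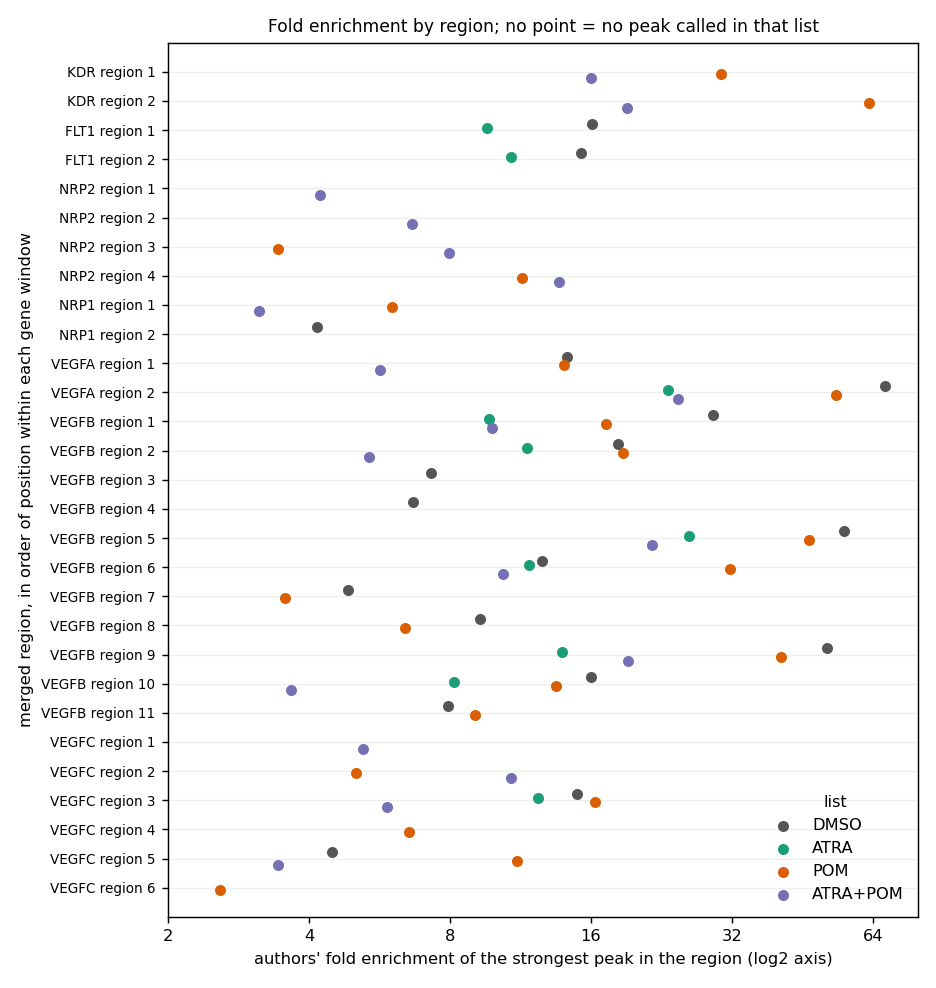
Fold enrichment of the strongest peak (log2 axis) in each of the 29 merged regions of the 8 windows, coloured by list and ordered by position within a gene. A missing point means no peak was called: the KDR rows carry POM and ATRA+POM points alone, with 62.7 as the highest, and the VEGFA and VEGFB rows hold the other values above 50.

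VEGFA, the main angiogenic ligand and a hypoxia target gene, was the 1 gene of the 8 with a region over its own annotated start, and that region was called in every list, although the ATRA-labelled peak nearest the start began just past it. It lies on the plus strand at chr6:43770211-43786487. The region chr6:43770171-43774903 covered 4733 bp from the start into the gene. The strongest fold enrichment in it was 68.0 with DMSO on 295 reads, 23.4 under the ATRA label on 38 reads, 53.3 with POM on 194 reads and 24.5 with ATRA+POM on 121 reads. The strongest summit lay 2151 bp past the start with DMSO, 2124 bp under the ATRA label, 2455 bp with POM and 2457 bp with ATRA+POM. The same region was called as 2 peaks with DMSO, 6 under the ATRA label, 2 with POM and 5 with ATRA+POM. The higher peak numbers of VEGFA in the ATRA-labelled and ATRA+POM lists are thus pieces of 1 region. The covered length went the other way, with 4924 bp in the window with DMSO, 2882 bp under the ATRA label, 4823 bp with POM and 3662 bp with ATRA+POM. Just before the start, chr6:43769673-43770089 had no peak under the ATRA label, and its fold enrichment was 14.2 for DMSO, 14.0 for POM and 5.67 for ATRA+POM. Outside the window, 37.7 kb past the gene, a region was called with POM at 23.8 on 201 reads and with ATRA+POM at 13.6 on 98 reads. It was called in neither of the other lists. Between 44.2 and 45.1 kb before the gene, every list had a peak.

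**Figure D4:**
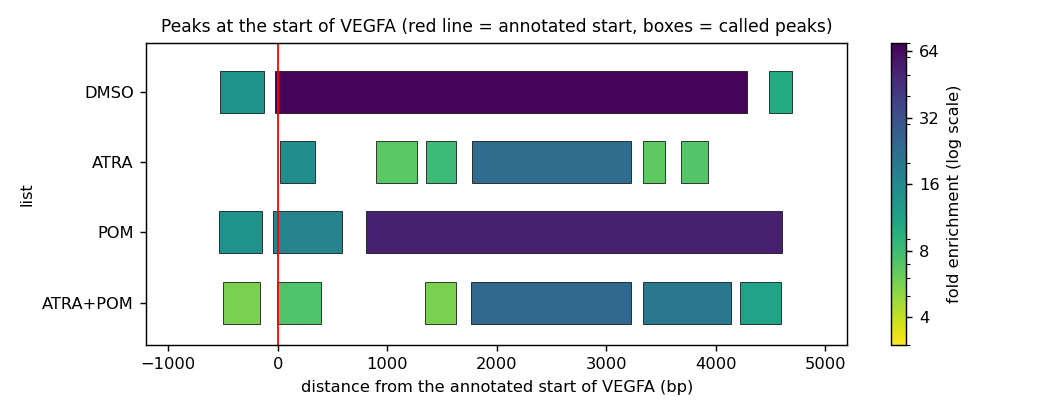
Called peaks (boxes) at the start of VEGFA in each list, against the distance from the annotated start in bp, shaded by fold enrichment on a log scale. Past the start the region is called as 2 boxes with DMSO, the longer at 68.0, as 2 with POM, as 6 under the ATRA label and as 5 with ATRA+POM.

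VEGFB, a ligand of FLT1, had the most peaks in its window and few of its own. The window held 11 peaks with DMSO, 11 under the ATRA label, 12 with POM and 10 with ATRA+POM. Of these, 9, 11, 12 and 10 lay nearest the start of another gene. VEGFB lies on the plus strand at chr11:64234584-64239264 among the genes FERMT3, TRPT1, NUDT22, DNAJC4, FKBP2, PPP1R14B and PLCB3, and LOC114841035 also overlaps its window. The peaks nearest the VEGFB start were 2 weak DMSO peaks, at 384 bp and 918 bp past it. Their fold enrichments were 7.27 on 25 reads and 6.66 on 28 reads.

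The strongest region of the VEGFB window, chr11:64240048-64241443, overlapped the first FKBP2 promoter window printed above. Its strongest summit lay 296 to 311 bp before that FKBP2 start in each list, just outside the printed letters. The sequence at the summits was not searched. FKBP2 encodes a chaperone of the endoplasmic reticulum, where plasma cells fold antibody. The fold enrichment there was 55.6 with DMSO on 407 reads, 25.9 under the ATRA label on 47 reads, 46.8 with POM on 264 reads and 21.6 with ATRA+POM on 210 reads. Without VEGFB the windows held 8, 10, 13 and 17 peaks in the DMSO, ATRA-labelled, POM and ATRA+POM lists. Without VEGFA as well they held 5, 4, 10 and 11.

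**Figure D5:**
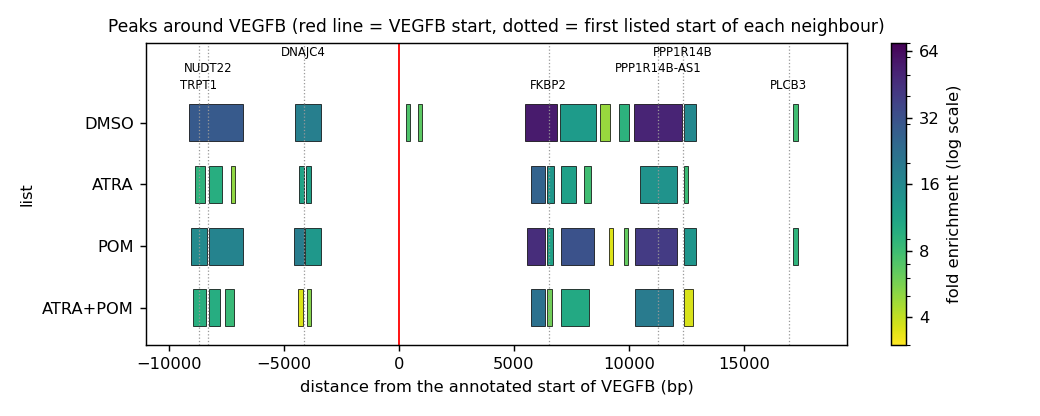
Called peaks (boxes) around VEGFB in each list, against the distance from its annotated start in bp, shaded by fold enrichment on a log scale, with dotted lines at the first listed start of each neighbour. The boxes gather at TRPT1, NUDT22, DNAJC4, FKBP2 and PPP1R14B, and 2 weak DMSO boxes lie just past the VEGFB start.

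VEGFC, the lymphatic ligand of FLT4, had 2 peaks with DMSO, 2 under the ATRA label, 5 with POM and 4 with ATRA+POM. It lies on the minus strand at chr4:176683538-176792922, and its peaks lay inside the gene. The region chr4:176762474-176763105, about 30 kb from the start, was called in all 4 lists. Its fold enrichment was 14.9 with DMSO on 251 reads, 12.3 under the ATRA label on 36 reads, 16.3 with POM on 318 reads and 5.87 with ATRA+POM on 89 reads. At chr4:176769871-176770676 it was 4.48 with DMSO on 105 reads, 11.1 with POM on 216 reads and 3.43 with ATRA+POM on 79 reads. At chr4:176726992-176727379 it was 5.04 with POM on 22 reads and 10.8 with ATRA+POM on 87 reads. The remaining regions were called in a single list, at 6.55 and 2.58 with POM and at 5.22 with ATRA+POM.

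By role, the receptors had 2 peaks in each of the 4 lists, which were FLT1 peaks with DMSO and under the ATRA label and KDR peaks with POM and ATRA+POM. The coreceptors had 1, 0, 3 and 5 peaks and the ligands 16, 19, 20 and 20. A peak was found in the window of 5 of the 8 genes with DMSO, 4 under the ATRA label, 6 with POM and 6 with ATRA+POM. Over all genes the shares with a peak were 72.6%, 62.8%, 73.7% and 67.9%.

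Joining overlapping peaks across the lists gave 67328 regions, 29 of them in the 8 windows. Of the 29, 6 (20.7%) were called with POM and ATRA+POM alone, against 9.60% of all regions, and they lay at KDR, NRP1, NRP2 and VEGFC. The DMSO and ATRA-labelled lists alone shared 2 (6.90%), both at FLT1, against 4.11% of all regions. All 4 lists shared 8 (27.6%), against 28.8%, at VEGFA, VEGFB and VEGFC. The choice of the genes used these peaks, so nothing further is read from the shares.

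Peak by peak, 8 of 25 POM peaks (32.0%, 95% Wilson interval 17.2 to 51.6) had no DMSO counterpart, against 30.2% over the whole list. They lay at KDR (2), NRP2 (2), NRP1 (1) and VEGFC (3). In the other direction, 5 of 19 DMSO peaks (26.3%, 11.8 to 48.8) had no POM counterpart, against 29.3%. These were at FLT1 (2), NRP1 (1) and VEGFB (2). By peak number, 4 genes (KDR, NRP2, VEGFB and VEGFC) had more peaks with POM than with DMSO, against 29.0% of all genes, and FLT1 had fewer, against 26.1%. These Wilson intervals cover counting error only. They treat each peak as independent, although many lie close together, with 12 of the 25 POM peaks in the VEGFB window.

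For ATRA+POM, 9 of 27 peaks (33.3%, 18.6 to 52.2) had no DMSO counterpart, against 24.1% over the list, at KDR (2), NRP2 (4), NRP1 (1) and VEGFC (2). Of the DMSO peaks, 8 of 19 (42.1%, 23.1 to 63.7) had no ATRA+POM counterpart, against 44.1%. More peaks with ATRA+POM than with DMSO were counted at KDR, NRP2, VEGFA and VEGFC, against 24.0% of all genes. Fewer were counted at FLT1 and VEGFB, against 36.2%. In the ATRA-labelled list 0 of 21 peaks (0.00 to 15.5%) lacked a DMSO counterpart, against 0.327%. Of the 19 DMSO peaks, 9 (47.4%, 27.3 to 68.3) had none under the ATRA label, against 48.7%, at a depth of 0.132 of the DMSO library.

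Compared with the POM list, 3 of 27 ATRA+POM peaks (11.1%, 3.85 to 28.1) had no counterpart, 2 at NRP2 and 1 at VEGFC, against 10.5% over the list. Of the POM peaks, 5 of 25 (20.0%, 8.86 to 39.1) had no ATRA+POM counterpart, 3 in the VEGFB window and 2 at VEGFC, against 36.2%. No VEGF gene had a peak in 1 of these lists and none in the other, while 1.05% of all genes had one with ATRA+POM only and 6.78% with POM only. Set against the ATRA-labelled list, 12 of 27 ATRA+POM peaks (44.4%, 27.6 to 62.7) had no counterpart, against 43.8%. In reverse, 3 of 21 (14.3%, 4.98 to 34.6) had none, against 23.3%. The 3 comparisons with DMSO share the same DMSO library.

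Where a region was called in both lists of a comparison, the ratio of fold enrichments was set beside that of all such regions. For POM over DMSO the median log2 ratio was -0.25 over 13 VEGF gene regions, from -0.76 to 1.33, and 0.08 over 32829 regions. For ATRA+POM over DMSO it was -1.39 over 10 regions, from -2.13 to -0.27, and -0.56 over all. For the ATRA-labelled library over DMSO it was -0.86 over 10 regions and -0.42 over all. These regions are mostly those of VEGFA and the VEGFB window. With 1 added to reads and background, the fold enrichment also depends on depth, which was 0.132 of DMSO under the ATRA label. How far depth moved the ratios of that library was not tested. For ATRA+POM over POM the median was -1.12 over 16 regions and -0.66 over all, with KDR at -0.92 and -1.72 and NRP2 at 1.21 and 0.27. For ATRA+POM over the ATRA-labelled library it was -0.22 over 8 regions and -0.25 over all. Of the 16 regions in the comparison of ATRA+POM with POM, 3 had a ratio above 0, which were the NRP2 pair and 1 region of VEGFC.

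Another 54 genes of the pathway, in 6 lists, were counted in windows of the same size. With POM 18 had more peaks than with DMSO and 14 had fewer. With ATRA+POM 12 had more and 23 fewer, and under the ATRA label 8 had more and 28 fewer. Over all genes the shares with more and fewer peaks were 29.0% and 26.1% with POM, 24.0% and 36.2% with ATRA+POM, and 15.9% and 41.9% under the ATRA label. Values below are given in the order DMSO, ATRA-labelled, POM, ATRA+POM.

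Among the plexins, which signal for neuropilin-bound semaphorins, PLXNA2 had 6, 0, 19 and 14 peaks. PLXNA3 had 8, 4, 5 and 4, and PLXNA4 had 6, 0, 3 and 0. The 5 plexin genes together had 22, 5, 31 and 22. Of the 9 further ligand genes, 1 had more peaks with POM and 2 had fewer. The semaphorin genes SEMA3A, SEMA3B and SEMA3G had 13, 8, 12 and 8 peaks, 4, 6, 9 and 6 peaks, and 3, 0, 2 and 1 peaks. Placental growth factor (PGF) had none in any list, and VEGFD, the other FLT4 ligand, had 2, 3, 2 and 1.

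Of the 10 other angiogenic receptor and ligand genes, KIT, the stem cell factor receptor next to KDR, had 1, 0, 5 and 4 peaks. DLL4, a Notch ligand of sprouting vessels, had 3, 2, 1 and 0, and ANGPT2, a TEK ligand, had 0, 0, 0 and 1. Among 7 oxygen sensing genes, EPAS1, which encodes the HIF-2 alpha subunit, had 0, 0, 5 and 3. HIF1A, its paralogue, had 9, 5, 7 and 4, and the prolyl hydroxylase EGLN2 had 4, 1, 3 and 1. In that list 3 genes had more peaks with POM and 3 fewer.

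Of the 14 genes that act below the receptors, 6 had more peaks with POM and 5 fewer. PLCG2, a phospholipase C, had 4, 1, 8 and 2. PRKCA, a protein kinase C, had 11, 4, 7 and 3, and HSPB1, a small heat shock protein, had 5, 4, 7 and 2. Of 9 endothelial transcription factor genes, 4 had more peaks with POM and 1 fewer. KLF2, a flow-responsive factor, had 4, 5, 8 and 5 peaks, FLI1 had 18, 14, 11 and 15, and ERG had 1, 0, 3 and 2. GATA2, TAL1, SOX17 and SOX18 had none in any list.

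The peak numbers of KDR (0, 0, 2 and 2) were shared by 36 genes (0.180%). Ordered by the distance between log2 fold enrichments of the strongest peak, with 1 added, the 5 genes closest to KDR over the 4 lists were TM4SF18, LIX1, TOGARAM2, IGSF6 and CNN3. TM4SF18 had strongest fold enrichments of 27.3 with POM and 20.5 with ATRA+POM, LIX1 25.8 and 22.2, and TOGARAM2 38.2 and 8.12. IGSF6 had 24.1 and 28.3, and CNN3 had 22.8 and 15.3. KDR had 62.7 and 19.1, so its POM value was above that of each of these 5 genes.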

How the data were processed

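Chromatin immunoprecipitation libraries from OPM-2 cells, 1 for each of 4 treatments and grouped by the treatment in their labels, were analysed as 4 lists of peaks with 10 columns. Each list comes from 1 library, so replicates were not pooled. The deposited columns used were the score, the −log10 p, the −log10 q and the fold enrichment, a ratio of summit to local background, all as the authors gave them. Per the submitters' processing notes, coordinates are hg38. No aligner, peak caller or antibody is named: not given in the sources used here.

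Depth is not stated. Reads at each summit were recovered from the fold enrichment and p under a Poisson model with 1 added to reads and background. They came out whole within 0.02 for every peak except 2 in the ATRA-labelled list and 1 in the POM list. Relative depth came from the lowest background seen 20 times or more, per base of the narrowest peak. Both are inferences from the values.

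Peaks on chromosomes 1 to 22 and X were counted in gene windows (body and 20 kb on both sides) for 19974 protein-coding genes of a RefSeq table of the same build. This table has no transcripts, so exons and introns are not told apart. The strand of VEGFA was taken as background knowledge. A counterpart is an overlap of at least 1 bp. Shares carry 95% Wilson intervals. With 1 library per treatment no condition was tested. Motifs were searched on both strands in promoter windows of 300 bases, and peak sequences were not used here.

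The members and gene lists were chosen with earlier results of these data known. Named genes are the 8 members, neighbours overlapping their windows, the 4q12 neighbours of KDR, up to 3 genes per pathway list with the largest difference in peaks between DMSO and a list with pomalidomide, and the 5 genes most like KDR. PGF, VEGFD, GATA2, TAL1, SOX17, SOX18 and the marker genes are named beyond that rule, after their values were seen. The alternatives were other windows, stronger peaks, an equal number of peaks, other overlaps, merged peaks, the strongest peak by −log10 q and ratios less their median. Scripts were tested on simulated data. The software was Python 3.11.15 with pandas 2.3.3, scipy 1.17.1, matplotlib 3.10.9 and numpy 2.4.6.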

Additional observations from a re-analysis of the deposited data

How the results depend on the processing

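With 1 library per treatment, counting error and the depth of 0.132 under the ATRA label limit these values. Of 172 recomputed values, 126 stayed within a set tolerance. For shares this was the Wilson interval, and for counts and ratios a fixed factor that measures no error. Peak numbers of single genes are not in this tally. The cause of a moved value was not tested unless the setting itself reduces peaks or genes. No paired analysis was possible because each treatment has 1 library and no test was made. Peak numbers in the 8 windows are given in the order DMSO, ATRA-labelled, POM, ATRA+POM. They were 9, 10, 10 and 13 with the gene body alone, 39, 37, 44 and 43 with 50 kb on both sides, and 10, 8, 13 and 15 with peaks within 500 bp merged. In the stronger 50% of each list they were 11, 10, 17 and 9. At a fold enrichment of at least 10, a setting chosen after seeing the data, they were 12, 10, 17 and 10. ATRA+POM, with 27 peaks against 25 with POM over all peaks, thus had fewer than POM at both settings. Regions found with POM and with ATRA+POM alone numbered 3 in the stronger 50% and 3 with an equal number of peaks. Regions of the lists of DMSO and of the ATRA label alone numbered 1 in the stronger 50%, 1 with peaks merged and 1 with peaks within 500 bp joined into a region. Without the ATRA-labelled list, also chosen after seeing the data, the DMSO regions without pomalidomide counterpart numbered 5. Regions of all 4 lists numbered 5 at 5 kb, 2 in gene bodies, 15 at 50 kb, 4 in the stronger 50%, 5 with peaks merged and 5 with peaks joined. In gene bodies the share of POM peaks without a DMSO counterpart was 60.0%, and that of DMSO peaks without a POM counterpart 55.6%. With an overlap of 50% of the peak, 94.7% of DMSO peaks had no ATRA-labelled counterpart, 68.4% none with ATRA+POM, and 40.0% of POM peaks none with ATRA+POM. That last share was 8.00% with peaks within 500 bp as shared, 7.69% with peaks merged, 58.8% in the stronger 50% and 0.00% at a fold enrichment of at least 10. The stronger 50% setting cut each of the lists compared. For shares at a fold enrichment of at least 10, counterparts were sought in the whole other list, so shares at these settings are not like for like. In the stronger 50%, 60.0% of ATRA-labelled peaks had no ATRA+POM counterpart. At a fold enrichment of at least 10, 16.7% of DMSO peaks had none under the ATRA label, 16.7% none with ATRA+POM, and 0.00% of ATRA+POM peaks none with POM. With an equal number of peaks, 0 VEGF genes had a peak with DMSO and none under the ATRA label. Less the median over all regions, the median log2 ratio of ATRA+POM over POM was -0.46, and that of ATRA+POM over the ATRA-labelled library turned to 0.03.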

Other observations

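The 360 kb on the far side of KIT, between the end of PDGFRA and KIT, held 4 peaks with DMSO, 1 under the ATRA label, 9 with POM and 10 with ATRA+POM. Its strongest region, chr4:54546904-54548970, was called in all 4 lists, with fold enrichments of 32.2, 16.5, 68.4 and 39.2 in that order. At chr4:54426983-54429175 the fold enrichment was 7.91 with DMSO on 76 reads, 48.8 with POM on 600 reads and 26.9 with ATRA+POM on 361 reads. At chr4:54565381-54566659 it was 4.07 on 73 reads, 24.1 on 503 reads and 22.9 on 379 reads. The KIT body held 0, 0, 4 and 2 peaks, with a strongest fold enrichment of 8.44 with POM and 6.76 with ATRA+POM. The body of PDGFRA, the platelet-derived growth factor receptor alpha gene, held no peak in any list.

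Marker genes of other lineages were counted in the same windows, in the order DMSO, ATRA-labelled, POM, ATRA+POM. CSF1R, the macrophage growth factor receptor, had 0, 0, 6 and 2 peaks, and SPI1, a myeloid transcription factor, had 1, 0, 1 and 1. The other 2 myeloid genes, CD14 and LYZ, had 4, 2, 3 and 2 peaks and 1, 2, 2 and 2 peaks. CDH5, the endothelial cadherin, had 0, 0, 1 and 2, while VWF, CLDN5 and TIE1 had none in any list. The 7 endothelial genes together had 7, 6, 9 and 8. Of the T cell genes, CD2 had 2, 2, 5 and 5, CD3D and CD3G each had 2 in every list, and CD3E had 0, 0, 1 and 0. Among plasma cell genes IRF4 had 8, 5, 4 and 4 peaks, and MZB1 had 6, 9, 7 and 11. The 8 plasma cell genes together had 50, 58, 49 and 57. These genes were picked after their values were seen.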
